A study of Mus musculus with 2 samples.

Results

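The genes described here are the microRNA (miRNA) genes of the mouse Hox clusters: Mir10a, Mir10b, Mir196a-1, Mir196a-2, Mir196b and Mir615. They were chosen by name, through the Ensembl gene identifiers of the deposited tables, and make up 6 of the 1973 miRNA genes counted. The tissue was neural tube, the embryonic precursor of brain and spinal cord, taken from healthy B6NCrl mouse embryos 15.5 days old. All samples belong to 1 group of 2 biological replicates with no treatment and no altered gene, pooled from 78 embryos for library 1 and from 62 for library 2, with males and females mixed. The labels do not say which levels of the body axis were dissected. Counts were made from a small RNA library with inserts under 30 bases, and a level is given as CPM, the counts scaled to a sum of 1000000 sense-strand counts in miRNA genes per library.

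Hox genes encode homeodomain transcription factors that give position along the head-to-tail axis. Within each cluster, genes near the 3′ end are switched on early and far forward, and genes near the 5′ end late and further back. In the nervous system they are known from hindbrain and spinal cord, and are absent from forebrain and midbrain. The miRNA genes between them share much of this regional expression and repress messenger RNAs, Hox transcripts among them, by pairing through the seed, which is bases 2 to 8 of the mature strand. A miRNA precursor holds 2 arms, named 5p and 3p, and the counts here are per gene, with the arms not separated.

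The mature strands in RefSeq (GRCm38.p6) share a seed between miR-10a and miR-10b and another between miR-196a and miR-196b. The 5p strands of both families and both strands of miR-615 are shown, with the seed in capitals, because strands with 1 seed can pair with the same short sites.
miR-10a-5p: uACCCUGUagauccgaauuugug
miR-10b-5p: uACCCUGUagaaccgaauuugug
miR-196a-5p: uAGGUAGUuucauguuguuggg
miR-196b-5p: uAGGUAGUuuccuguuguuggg
miR-615-3p: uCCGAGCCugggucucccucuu
miR-615-5p: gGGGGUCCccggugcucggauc
The miR-10 strands differ by the single substitution U12A (miR-10a first), and the miR-196 strands by A12C (miR-196a first), with positions counted from the 5′ end. Both changes lie outside the seed. Among 1679 named mature mouse miRNAs, the miR-10 seed occurred only in miR-10a-5p and miR-10b-5p, and the miR-196 seed only in miR-196a-5p and miR-196b-5p. The miR-615 seeds occurred in no other entry. Mature sequences were found for 6 of 6 genes and hairpins for 5, all but Mir615.

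Mir196a-1 and Mir196a-2 carry the same mature strand, miR-196a-5p, whole in both hairpins. Their precursors share a run of 22 bases, exactly the length of this strand, and no precursor of Mir10a, Mir10b or Mir196b shared 20 bases with any other of the 1005 hairpins searched. Reads that aligned to several places have an entry of their own in the tables and are taken here as counted in no gene, although the counting program is not known. Such reads were 29.4% of all reads in library 1 and 29.7% in library 2. A read that lies wholly within the shared 22 bases cannot be placed in Mir196a-1 or Mir196a-2. If such reads were counted in no gene, the counts of these genes are uncertain and may be too low.

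By position, the genes lie at 3 places, of which the anterior and posterior ones recur between clusters. Mir10a (ENSMUSG00000065519.1) at chr11:96317165-96317274 lies 0.993 kb 5′ of Hoxb4, outside any annotated host on its strand. Mir10b (ENSMUSG00000065500.2) at chr2:74726070-74726137 lies in introns of Hoxd4 and Hoxd3. Both therefore sit beside a gene of paralog group 4, and are called anterior here.

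Mir615 (ENSMUSG00000076010.1) at chr15:103014910-103015001 lies in an intron of Hoxc5, 3.93 kb 5′ of Hoxc4 and 3.03 kb 3′ of Hoxc6, and is called the middle gene. The Mir196 genes lie between the 3′ end of a group 9 gene and the next Hox gene towards the 5′ end, and are called posterior. Mir196a-1 (ENSMUSG00000065546.1) at chr11:96265164-96265265 lies 6.19 kb 5′ of Hoxb9 and 67.7 kb 3′ of Hoxb13, the next gene of that cluster. Mir196a-2 (ENSMUSG00000065488.1) at chr15:102973350-102973434 lies between Hoxc9, at 3005 bases, and Hoxc10, at 1.46 kb, within an intron of a long Hoxc5 transcript. Mir196b (ENSMUSG00000065443.1) at chr6:52230081-52230165, on the minus strand, lies within Hoxa9 and overlaps an exon in 2 of the 3 Hoxa9 transcripts that span it, 1.03 kb from Hoxa10. Coordinates are those of GENCODE M21 on GRCm38 (mm10). The identifiers of Mir10b and Mir196a-2 carry another version number there than in the tables.

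**Figure D1:**
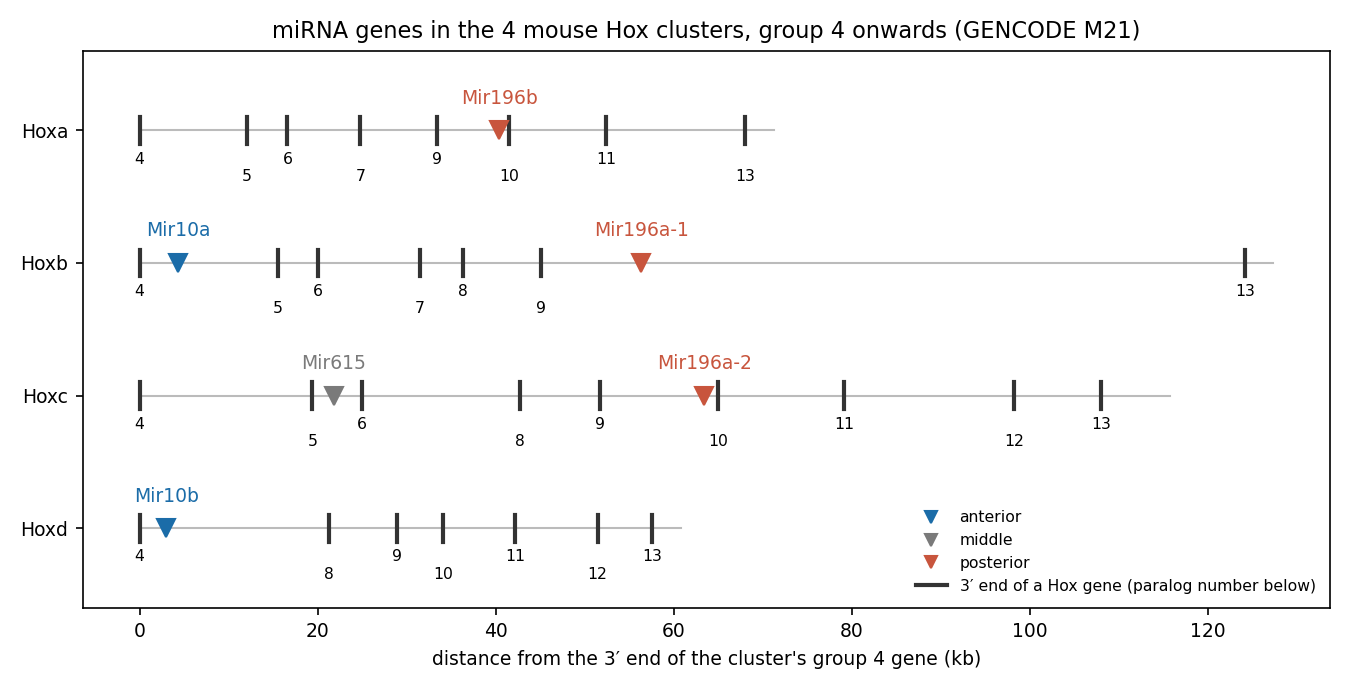
Positions of the miRNA genes (triangles) in the 4 Hox clusters, in kb from the 3′ end of the group 4 gene of each cluster. Vertical ticks mark the 3′ end of each Hox gene from group 4 on, with its paralog number below. Mir10a and Mir10b come next after the tick of a group 4 gene, and the 3 Mir196 genes come next after that of a group 9 gene.

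The libraries held 4228685 and 6039889 sense-strand counts in miRNA genes, and at least 10 counts were found in both for 363 genes, called detected below. Of 8 neuronal marker genes 5 were detected, and Mir124a-1, the highest of the 3 Mir124a copies not detected, had 8 and 17 counts. Copies that share a mature strand can lose reads that align to several places, so low counts of the Mir124a and Mir133a copies do not show that these miRNAs were missing. Markers of other tissues were present as well, 23 of the 29 in the tables, and summed to 50878 CPM (library 1) against 28730 CPM (library 2). The largest single part of both sums was Mir126a of endothelium, at 22011 and 19666 CPM, with a fold of 1.09. Epithelial markers were 8.46-fold and mesenchymal and smooth muscle markers 2.88-fold higher in library 1, and the neural markers summed to 14274 and 15408 CPM. The mesenchymal and smooth muscle sum rested mainly on Mir143, at 17950 and 3951 CPM. Without it the fold was 1.20, a value computed after seeing the data, and Mir140, next in level, had 2985 and 3025 CPM. Of the 6 genes of this list that were detected, the binomial test described below called 5 higher in library 1 and 1 higher in library 2. Over all detected genes these shares were 25.6% and 24.2%. Mir214 had 1066 and 437 CPM, and Mir145a had 250.0 and 58.3 CPM. Among the markers of other tissues, Mir145b of smooth muscle, Mir133a-1 and Mir133a-2 of striated muscle and Mir142b of leukocytes were at 0 in both libraries. These cell types were not absent by their other markers. Of the genes with an entry, 2 of 5 for striated muscle and 3 of 4 for leukocytes were detected. Mir206 of striated muscle had 283 and 359.8 CPM, and Mir223 of leukocytes had 204 and 104 CPM. Mir142 had no entry. In tissue of mixed cells, fewer cells of a type and less RNA per cell cannot be told apart. With 2 pools, p-values measure counting error or the spread between these 2 samples only.

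The anterior genes Mir10a and Mir10b had the most counts among the genes of the tables, while each of the other Hox cluster genes held under 1%. This order covers counted reads only, and miRNAs with several gene copies can rank too low where their reads align to several places. Mir10a had 721419 counts in library 1 and 1080644 in library 2, which is 170601 and 178918 CPM. Mir10b had 704843 and 1091166 counts, which is 166681 and 180660 CPM. These were ranks 1 and 2 of the table in both libraries, with Mir10a ahead in library 1 and Mir10b ahead in library 2. The mean levels were 174760 ± 5881 CPM for Mir10a and 173671 ± 9884 CPM for Mir10b (SD, n = 2). Their joint share was 33.7% for library 1, with a 95% Wilson interval of 33.7 to 33.8, and 36.0% for library 2, with one of 35.9 to 36.0. All intervals cover counting error only. They treat reads as independent molecules, which reads amplified by PCR need not be, so they may be too narrow even for that error.

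The middle gene Mir615 had 21139 counts and 4999 CPM in library 1, and 38689 counts and 6406 CPM in library 2. Its mean was 5702 ± 995 CPM (n = 2), which gave it rank 25 in the table. Mir615 was thus among the more abundant miRNA genes, but 33.3-fold below Mir10b in library 1 (95% exact counting interval 32.9 to 33.8) and 28.2-fold below it in library 2 (27.9 to 28.5).

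Of the posterior genes, Mir196b had the most assigned counts in both libraries. If the Mir196a counts are too low, its lead over these copies is too large. Mir196b had 27383 counts and 6476 CPM in library 1, and 25198 counts and 4172 CPM in library 2, with a mean of 5324 ± 1629 CPM (n = 2). Mir196a-2 had 8797 counts and 2080 CPM in library 1, and 10009 counts and 1657 CPM in library 2, with a mean of 1869 ± 299 CPM. Mir196a-1 had 107 counts and 25.3 CPM in library 1, and 126 counts and 20.9 CPM in library 2, with a mean of 23.1 ± 3.14 CPM. The copies that encode the same mature strand therefore differed widely in assigned counts, by 82.2-fold in library 1 (68.0 to 100.4) and 79.4-fold in library 2 (66.6 to 95.5), over the reads that could be told apart.

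**Figure D2:**
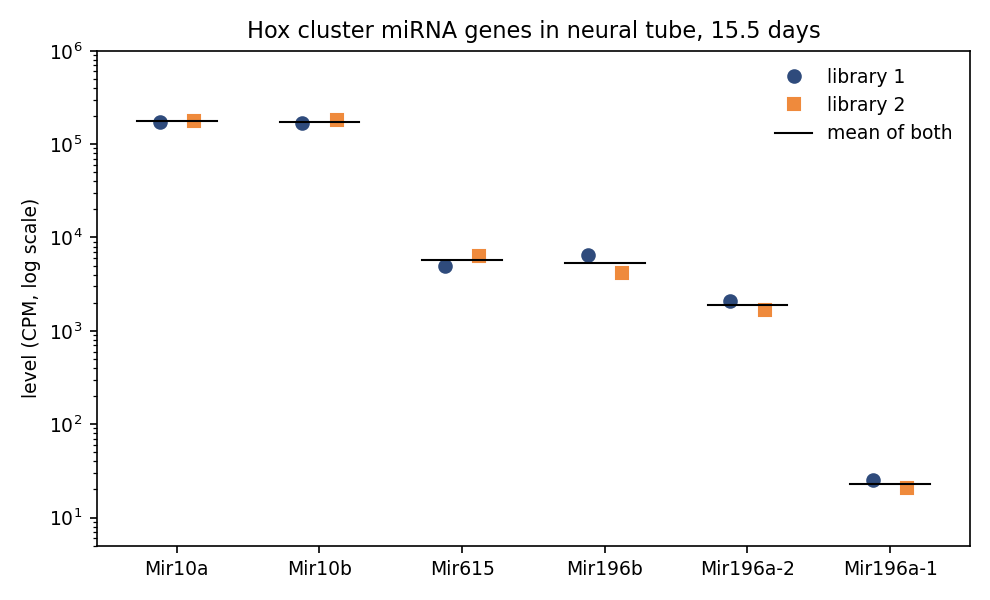
Level of each Hox cluster miRNA gene in CPM on a log scale, with library 1 as circles, library 2 as squares and the mean as a line. Mir10a and Mir10b lie between 166681 and 180660 CPM, Mir615 and Mir196b swap places between the libraries, and Mir196a-1 lies at 20.9 and 25.3 CPM.

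In the order of the mean levels, Mir10a stood first, then Mir10b, Mir615, Mir196b, Mir196a-2 and Mir196a-1. The annotated mature strands shown are 22 or 23 bases long, so that levels were compared between genes with no correction for length; the lengths of the counted reads are not known. Mir10a and Mir10b did not differ beyond the spread between the libraries. Counts of Mir10a were 1.024 times those of Mir10b in library 1 (1.020 to 1.027) and 0.9904 times in library 2 (0.9877 to 0.9930). Each ratio differed from equal counts by an exact binomial test, two-sided, with Benjamini-Hochberg adjustment over 10 tests (adjusted p = 9.43e-44 and 9.39e-13), but in opposite directions.

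Mir615 and Mir196b did not differ beyond their spread either, and their order also changed between the libraries. Counts of Mir615 were 0.772 times those of Mir196b in library 1 (0.758 to 0.786) and 1.54 times in library 2 (1.51 to 1.56). The other neighbours in the order kept it in both libraries with no overlap of their levels. Mir196b was 3.11-fold above Mir196a-2 in library 1 (3.04 to 3.19) and 2.52-fold above it in library 2 (2.46 to 2.58). These are folds of assigned counts, and if the Mir196a-2 counts are too low, they and the place of Mir196a-2 in the order are uncertain.

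Summed by cluster, the Hoxb genes (Mir10a and Mir196a-1) held 17.5% ± 0.588 of the counts and the Hoxd gene Mir10b held 17.4% ± 0.988 (n = 2). The Hoxc genes (Mir196a-2 and Mir615) held 0.757% ± 0.0695 and the Hoxa gene Mir196b held 0.532% ± 0.163. The clusters with a Mir10 gene thus held 96.1% (library 1) and 96.7% (library 2) of the counts of the 6 genes through Mir10a and Mir10b, and within Hoxb almost all came from Mir10a. Summed by position, the anterior genes held 34.8% ± 1.58, the middle gene 0.570% ± 0.0995 and the posterior genes 0.722% ± 0.193. Anterior counts were 39.3 times posterior counts in library 1 (95% exact counting interval 38.9 to 39.7) and 61.5 times in library 2 (60.8 to 62.1). If the Mir196a counts are too low, both ratios are too high. With Mir196b as the only posterior gene the ratios were 52.1 and 86.2, which does not address that doubt.

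Few reads lay on the strand opposite the genes. The tables do not name their columns, and the column with nearly all counts was taken as the sense strand, so a low share on the other strand follows in part from that choice. Of 1483688 reads at these genes in library 1, 0 lay on the opposite strand, which allows a share of up to 0.000202%. In library 2 there were 3 of 2245835 reads, all at Mir10a. Over all miRNA genes the opposite strand held 1.80% of the counts in library 1 and 1.60% in library 2.

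Between the pools, Mir196b and Mir196a-2 were higher in library 1, while Mir10a, Mir10b and Mir615 were higher in library 2. Counts were compared gene by gene with an exact binomial test, two-sided, with TMM library sizes and Benjamini-Hochberg adjustment over the 363 detected genes. The test compares these libraries, not conditions, and takes only counting error into account. Of the 6 genes, 2 were higher in library 1, where 25.6% of all detected genes were called, and 3 were higher in library 2, where 24.2% of all were called. In either direction 49.9% of the detected genes were called, and 68.5% of the 184 genes with at least 100 CPM in both libraries, so that a call as such sets no gene apart.

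Mir196b differed most, 1.52-fold higher in library 1 (1.49 to 1.54), or 0.60 as a log2 ratio. Only 5.43% of the 184 genes with at least 100 CPM had a larger log2 ratio in either direction. Mir196a-2 was 1.23-fold higher in library 1 (1.19 to 1.26; adjusted p = 4.88e-43). Mir196a-1 had a ratio of 1.18 (0.907 to 1.55), which did not pass the test (adjusted p = 0.316), and with 107 and 126 counts its interval also holds the ratios of the other Mir196 genes. The Mir196 genes as a sum were 1.43-fold higher in library 1 (1.41 to 1.45).

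Mir615 went the other way, 1.31-fold higher in library 2 (1.29 to 1.33; log2 ratio -0.39, library 1 over library 2). Of the 184 genes, 9.78% had a larger log2 ratio in either direction. Mir10b was 1.11-fold (1.11 to 1.11) and Mir10a 1.07-fold (1.07 to 1.08) higher in library 2, shifts of the size seen in many abundant genes: 42.4% and 60.9% of the 184 genes had larger ones. The median size of the log2 ratio was 0.27 over the 6 genes, 0.13 over the 184 genes and 0.20 over all detected genes.

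None of these differences was called by edgeR's exact test, which adds a spread between pools of 34.3%. That spread was estimated from the difference between the same 2 libraries, so shifts of usual size could hardly be called, and a gene not called is not shown to be alike in both pools. The test called 0 of the 6 genes (adjusted p = 1.00 for each; 0 at an unadjusted p under 0.05), where 2.20% of the detected genes were called. With the spread of 19.2% found without the markers of other tissues, a setting added after seeing the data, edgeR's exact test again called 0 of the 6 (adjusted p = 1.00 for each), where 4.13% of the detected genes were called. The epithelial markers, Mir143 and most other detected mesenchymal and smooth muscle markers were higher in library 1, as were Mir196b and Mir196a-2. Other lists differed: library 1 over library 2, the sums gave 1.78 for leukocytes and 0.773 for striated muscle. Erythroid, endothelial and liver markers gave 1.08, 1.09 and 1.14. The part of the marker genes in the differences was not tested.

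**Figure D3:**
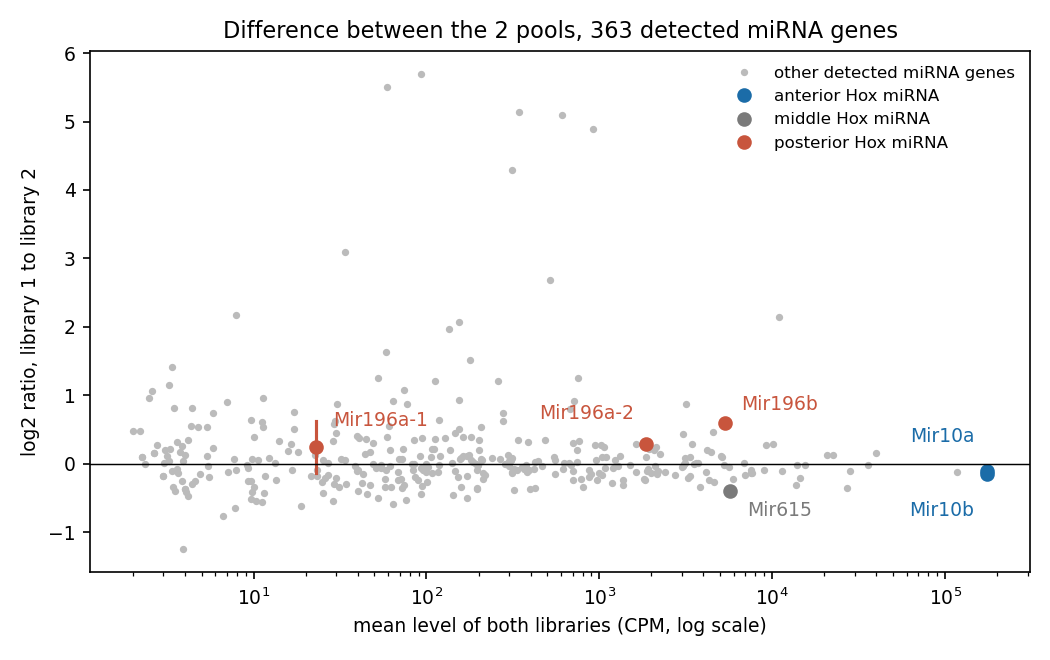
Log2 ratio of library 1 to library 2 against the mean level in CPM (log scale) for the 363 detected miRNA genes, with the Hox cluster genes coloured by position and vertical bars for 95% counting intervals. The posterior genes lie above 0, at 0.24 to 0.60, and the anterior and middle genes below it, at -0.39 to -0.10. Mir196a-1, at 0.24, did not pass the binomial test, and its bar, from -0.14 to 0.63, crosses 0.

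The ratio of one Hox cluster gene to another does not depend on the library size, and was compared between the libraries for all 15 pairs with Fisher's exact test, two-sided, with Benjamini-Hochberg adjustment over all 65703 pairs of detected genes. This test was added after the levels were seen and again covers counting error only. The ratio differed for 11 of 15 pairs, where 41.5% of all pairs of detected genes differed. These shares are not matched for level. At least 1000 CPM in both libraries was reached by 5 of the Hox cluster genes, but by only 80 of the 363 detected genes. For single genes, the binomial test called 68.5% at 100 CPM or more and 49.9% of all detected. A share for pairs of like level was not computed, and the 15 pairs reuse the same genes, so their share sets them apart no further. The largest change was that of Mir615 to Mir196b, which was 1.99 times higher in library 2 (95% Woolf interval 1.94 to 2.04). Within the Hoxc cluster, Mir615 exceeded Mir196a-2 by 2.40-fold in library 1 and by 3.87-fold in library 2, a change of 1.61 times (1.56 to 1.66) between genes that lie 41.5 kb apart. If the Mir196a-2 counts are too low, both folds are too high.

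Among the pairs that passed the test, the anterior genes changed least against each other. The ratio of Mir10a, in Hoxb, to Mir10b, in Hoxd, changed by 1.03 times (1.03 to 1.04). Mir196a-2 to Mir196a-1 also changed by 1.03 times, but with a wide interval (0.799 to 1.34). Mir196b, in Hoxa, to Mir196a-2, in Hoxc, changed by 1.24 times (1.20 to 1.28), or 0.31 on the log2 scale (0.26 to 0.35). Mir10a and Mir10b to Mir615 changed by 0.29 (0.26 to 0.31) and 0.24 (0.22 to 0.27). The intervals overlap, and the changes were not tested against each other. The pairs that did not pass the test all involve Mir196a-1: its ratios to Mir10a (Fisher's exact test, adjusted p = 0.144), to Mir10b (0.0843), to Mir196b (0.135) and to Mir196a-2 (0.936). The ratio of Mir615 to Mir196a-1 did pass (Fisher's exact test, adjusted p = 0.00307).

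**Figure D4:**
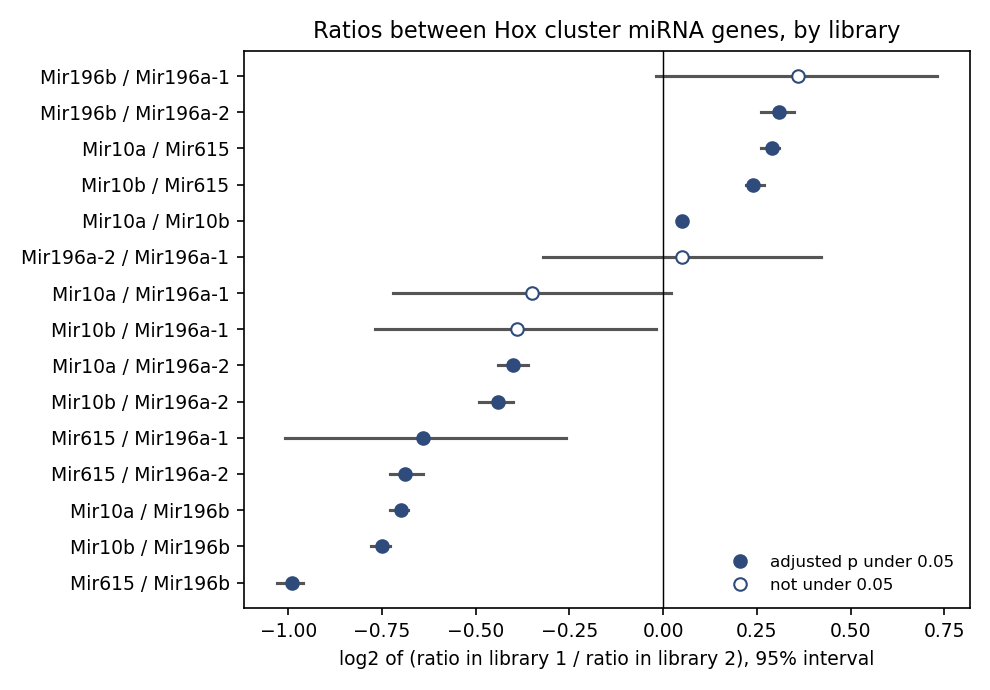
For each of the 15 pairs of Hox cluster miRNA genes, the log2 of the ratio in library 1 over the ratio in library 2, with 95% intervals. Filled circles passed the test and open circles did not. Mir615 to Mir196b lies farthest from 0, at -0.99. Each open circle is a pair with Mir196a-1, but the pair of Mir615 and Mir196a-1 is filled.

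The relatives of Mir10a and Mir10b outside the Hox clusters, Mir99a, Mir99b and Mir100, were also abundant. Their mature strands are shown because they share a stretch with the miR-10 strands but carry another seed, in capitals, common to all 3.
miR-99a-5p: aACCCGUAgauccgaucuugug
miR-99b-5p: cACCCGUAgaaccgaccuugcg
miR-100-5p: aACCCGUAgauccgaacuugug
The longest stretch that miR-10a-5p shares with miR-100-5p is GUAGAUCCGAA, which starts at base 7 of miR-10a-5p and at base 6 of miR-100-5p. Mir99a had 114125 and 120905 CPM, Mir100 had 27565 and 29067 CPM, and Mir99b had 13556 and 15313 CPM in libraries 1 and 2. With Mir10a and Mir10b, these genes held 49.3% of the counts in library 1 and 52.5% in library 2. All 3 were higher in library 2 by the binomial test, with log2 ratios (library 1 over library 2) of -0.12 for Mir99a, -0.21 for Mir99b and -0.11 for Mir100, and 0 were called by edgeR's exact test. Their shifts had the direction of those of Mir10a, at -0.10, and Mir10b, at -0.15.

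Other miRNA genes stood at nearly the same levels. Directly next to Mir615 in mean level were Mir382 at 5910 ± 532 CPM and Mir30d at 5659 ± 21.1 CPM, and next to Mir196b were Mir30d and Mir411 at 5293 ± 43.9 CPM (n = 2). Mir30d and Mir411 differed much less between the pools than Mir196b, with log2 ratios of -0.04 and -0.02. Mir196a-2 stood between Mir324 at 1885 ± 61.2 CPM and Mir15a at 1852 ± 114 CPM, and Mir196a-1 between Mir1198 at 23.2 ± 1.66 CPM and Mir486 at 22.6 ± 1.79 CPM. Below Mir10a and Mir10b, Mir99a came next.

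Likeness in the log2 ratio of library 1 to library 2 rests on 2 libraries and is a description only. Among genes of at least 100 CPM, the closest to Mir196b were Mir363 at 0.63, Mir483 at 0.53 and Mir542 at 0.51. The closest to Mir196a-2 were Mir106b and Mir23b, both at 0.29, and Mir27b at 0.30. The closest to Mir615 were Mir206 at -0.38, Mir204 at -0.37 and Mir760 at -0.36. Mir10a was nearest to Mir9-3, Mir153 and Mir218-2, all at -0.10, and Mir10b to Mir543 and Mir134, both at -0.15, and Mir434 at -0.14.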

How the data were processed

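MicroRNA sequencing of 2 libraries of neural tube was used. The authors deposited raw read counts per gene, 1 table per library, on mm10 with GENCODE M4, per the deposited README texts. The aligner and the counting program were not given in the sources used here. Every count table holds values without regard to strand and on either strand, and the former was the sum of the latter with 0 exceptions. The sense-strand counts were used. Entries that name no gene (45.7% and 47.7% of reads) were left out. Names came from GENCODE M21, which matched 1894 of 1973 identifiers. Library sizes were scaled with TMM on detected genes (edgeR 4.0.16, R 4.3.3; factors 1.012 and 0.988); DESeq2 1.42.0 gave the alternative size factors. Binomial and Fisher's exact tests and intervals were computed with scipy 1.17.1 in Python 3.11.15, and the binomial comparison was run on simulated data. The simulated counts held counting error only and no spread between pools, so they say nothing of how the comparison behaves with such a spread. A count of 0 allows up to 3 counts. The genes, marker lists and tests were chosen with earlier results of these data known. Seed matches of miR-10 and miR-196 in Hox transcripts are not reported here. Named besides the Hox cluster genes are Mir99a, Mir99b and Mir100, the neighbours of each gene in mean level, and the 3 genes closest in library ratio.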

Additional observations from a re-analysis of the deposited data

How the results depend on the processing

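With all reads of the tables as the denominator, levels fell to 91538 CPM for Mir10a, 90941 for Mir10b, 2981 for Mir615, 2801 for Mir196b, 981 for Mir196a-2 and 12.1 for Mir196a-1, and shares to 18.9% for the 6 genes, 18.2% anterior, 0.298% middle and 0.379% posterior. With multimapping reads added to the denominator, they were 111719, 111008, 3642, 3410, 1196 and 14.8 CPM, and 23.1%, 22.3%, 0.364% and 0.462%. The mean log2 ratio of Mir10a to Mir10b was 0.01 and ranged from -0.01 to 0.03 when either library was left out, so it changed sign with library 2 alone. The edgeR exact test called 8 genes in place of 181, with 8 higher in library 1 and 0 in library 2 (14 at an unadjusted p under 0.05). Under it the log2 ratios were -0.10 for Mir10a, -0.15 for Mir10b, 0.29 for Mir196a-2, 0.60 for Mir196b and -0.39 for Mir615, each with an adjusted p of 1.00; the test adds the spread between the pools. With the spread found without markers of other tissues it called 15 genes, 15 higher in library 1 and 0 in library 2, and these log2 ratios and adjusted p were the same to the digits given. Under 7 other settings (DESeq2 size factors, library sizes alone, no filter, at least 100 counts, both strands, and library sizes without the 6 genes or without markers of other tissues) 2 of the 6 genes were called higher in library 1 and 3 in library 2. In either direction, 180 of all 709 genes tested were called with no filter, 163 of 270 with at least 100 counts and 188 of 375 with both strands. Under the remaining settings 171 to 181 of 363 were called. With library sizes alone, 60.2% of calls were higher in library 1, against 51.4%. Leaving out a library leaves no comparison between libraries. No paired analysis was possible because there is only 1 group. Depth limits Mir196a-1 most, with 107 and 126 counts.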

Other observations

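The Hox transcripts were searched for sites that match the seeds of miR-615-3p and miR-615-5p, as a description of sequence and not of binding or repression. In each of 21020 protein-coding genes with an annotated stop codon, the longest 3′ UTR of GENCODE M21 was searched on the mRNA strand only, and 39 of these genes were Hox genes. The site GGCTCGG, for miR-615-3p, was found in Hoxb4 alone of the Hox genes and in 2.30% of all. GGACCCC, for miR-615-5p, was found in 4 Hox genes (Hoxa11, Hoxb13, Hoxc6 and Hoxc11) and in 6.57% of all. The median length searched was 966 bases for Hox genes and 961 for all.

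Across its whole length, miR-196a-5p had its closest ungapped match among Hox 3′ UTRs in Hoxb8, a known target, which lies in the same cluster as Mir196a-1. The site is shown with bases that match the full complement in capitals.
Hoxb8 site: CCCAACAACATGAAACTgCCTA
It matches at 21 of 22 bases, and the remaining base can form a G-U pair, which breaks the exact match to the seed. For miR-196b-5p the same site matches at 20 bases. The next best match of miR-196a-5p, in Hoxd8, held 15 of 22 bases. No messenger RNA was measured in these samples, so nothing is known here of the levels of these transcripts.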
